A study of Mus musculus with 6 samples.

Results

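The genes described here encode the desmosome of mouse epidermis: the desmogleins Dsg1a, Dsg2 and Dsg3, the desmocollins Dsc1, Dsc2 and Dsc3, the plaque proteins Dsp, Pkp1 and Jup, and the membrane protein Perp. They were taken by symbol, 10 of the 24014 genes listed, and all 10 passed the filter on low counts that left 14028 genes for testing. RNA was sequenced from epidermal cells of wild-type dorsal skin at postnatal day 2. The blister group (3 libraries) is healing skin in which a suction blister had been raised. The control group (3 libraries) was skin without a blister. Blisters were raised by negative pressure of 523.4 ± 1.3 mmHg under a syringe 4 mm across and typically measured 3 mm. Values of single libraries are given in the order of replicates 1, 2 and 3. In both groups the epidermis was loosened with 0.25% trypsin and the cells were passed through a 70 µm filter, so follicle cells and other cells that came away with the epidermis were included. The labels give neither the age at blistering nor whether each library was a different animal, so p-values measure the spread among these libraries, part of which may be technical.

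Desmosomes are spot-like junctions that hold neighbouring keratinocytes together and give the epidermis its resistance to stretch and shear. Desmogleins and desmocollins are cadherins that bind across the gap between cells. Inside the cell, plakoglobin (Jup) and plakophilins bind the cadherin tails, and desmoplakin (Dsp) ties them to keratin filaments. The cadherins are layered: Dsg2, Dsg3 and Dsc3 are known mainly from the lower layers, and Dsg1 and Dsc1 from the upper ones, where Pkp1 is also most abundant. Dsc2 is known as the widely expressed desmocollin of simple and stratified epithelia. Mice carry 3 copies of the Dsg1 gene.

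Desmosomal RNA was higher in the blister libraries. Of the 10 members 7 rose and 0 fell (edgeR quasi-likelihood test, Benjamini-Hochberg adjusted p below 0.05), where 9.76% of all genes tested rose and 11.5% fell. Those that rose were Dsg3, Dsc2, Dsc3, Dsp, Pkp1, Jup and Perp. At an unadjusted p under 0.05, edgeR gave 9 members higher and 0 lower. All genes were not counted at that threshold, so this count and those at it below have no share to be read against. DESeq2 called 9 higher and 0 lower, and limma-voom 6 and 0. Over all genes DESeq2 called 1965 higher and 1983 lower of 15148, and limma-voom 1314 and 1612 of 14028. The median log2 fold change of the members, blister over control, was 0.96, against 0.00083 over all genes tested. Of the 2255 genes that averaged at least 100 CPM (a count divided by the TMM-adjusted library size), 20.4% rose, with a median log2 fold change of 0.19. For 8 members every blister library lay above every control library, as 21.4% of all genes tested did. The 10 members together took 2.04%, 1.34% and 2.04% of all reads counted in the blister libraries, and 1.19%, 1.25% and 1.15% in controls.

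**Figure D1:**
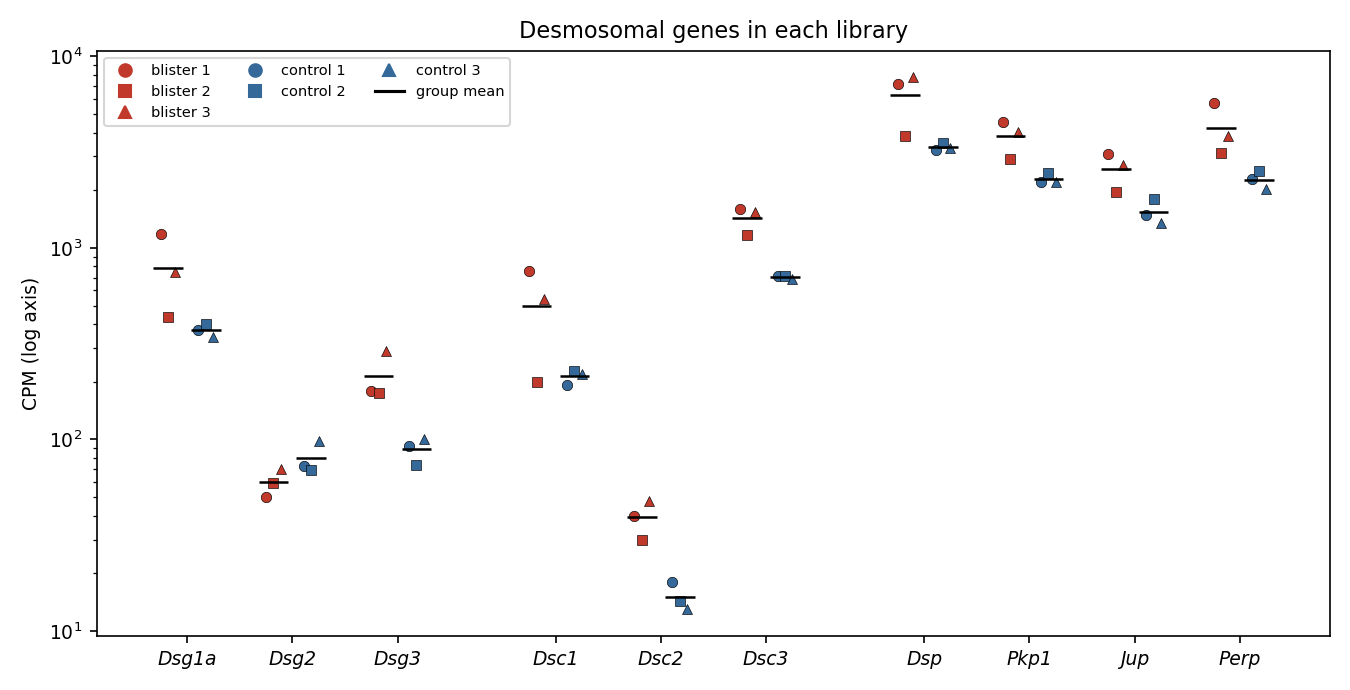
CPM on a log axis for the 10 members, with each point a library (circle, square and triangle for replicates 1, 2 and 3) and each bar the mean of 3 libraries. Controls lie close together, blister 2 is the lowest blister library for 9 of the 10 members, and Dsg2 alone has a lower mean in blister than in control.

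The libraries held 7600567 to 15912863 counts each, and members had 203 to 90890 counts per library. All pairs of libraries differed by far more than sampling noise (chi-square per degree of freedom of at least 15.2), so none was a copy of another. Markers of some other cell types moved with the groups. Of 10 dermal fibroblast markers 4 fell, with a summed level of 628 to 1424 CPM in blister libraries and 1159 to 7743 CPM in controls. Of 8 hair follicle markers 7 fell (151 to 692 against 1919 to 3488 CPM), and of 5 melanocyte markers 3 fell (314 to 506 against 792 to 927 CPM). All 8 neutrophil markers rose (293 to 942 against 6.05 to 17.0 CPM), and no marker of these lists was at 0 in every library. Of 4 macrophage and Langerhans cell markers tested 0 rose and 0 fell (53.1 to 88.3 against 50.6 to 86.8 CPM). The 2 T cell markers tested were not called either, and 1 of 4 endothelial markers fell. Basal keratinocyte markers summed to 42769 to 59885 CPM in blister libraries against 24083 to 24290 CPM in controls, and suprabasal markers to 47707 to 138681 against 42933 to 71359 CPM. The part of these shifts in the desmosomal differences was not tested. Fits with other scalings and with covariates are given below. In such bulk samples more cells of a type and more RNA per cell cannot be told apart.

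Among the desmogleins, Dsg3 rose. This cadherin of the lower layers, the main antigen in pemphigus vulgaris, was at 179.6, 174.6 and 290.9 CPM in blister libraries, against 92.4, 73.2 and 100.5 CPM in controls. Blister 3 was the highest and the groups did not overlap. The log2 fold change was 1.28 ± 0.23 (SE, edgeR adjusted p = 0.0133), 2.43-fold on the linear scale. Without control 1 the adjusted p was 0.0506.

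Dsg1a, the upper-layer desmoglein and the most abundant of the family, did not pass the test. Its level was 1176, 434.8 and 744.8 CPM in blister libraries, against 370.7, 401.9 and 342.8 CPM in controls. All blister libraries were above all controls, but blister 2 only slightly. The log2 fold change was 1.08 ± 0.32 (SE), with a 95% interval of 0.32 to 1.84 and 0.0522 as the edgeR adjusted p. It passed in DESeq2 (adjusted p = 0.00326) and in edgeR without blister 2 (adjusted p = 0.0195), while without blister 1 the log2 fold change was 0.67 (adjusted p = 0.134).

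Dsg2, the desmoglein of simple epithelia, basal keratinocytes and follicles, was the one member with a lower mean in the blister libraries. It stood at 50.02, 58.9 and 70.4 CPM in blister libraries, against 72.6, 69.5 and 98.2 CPM in controls. Blister 3 exceeded control 2, so the groups overlapped. The log2 fold change was -0.42 ± 0.18 (SE) and did not pass (edgeR adjusted p = 0.13), nor did it in any of the 20 alternative fits.

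All 3 desmocollins had higher means in the blister libraries, and 2 of them rose. Dsc3, the desmocollin of the lower layers and the most abundant one, was at 1601, 1166 and 1533 CPM in blister libraries. In controls it was at 714.6, 711.6 and 686.4 CPM. Blister values were far above a tight set of controls, and the log2 fold change was 1.03 ± 0.16 (SE, edgeR adjusted p = 0.00885), or 2.04-fold.

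Dsc2 was the scarcest member in the controls and had the highest fold change of the 10. It was at 39.9, 30.0 and 47.7 CPM in blister libraries, against 18.05, 14.3 and 13.0 CPM in controls. The groups did not overlap, and the log2 fold change was 1.38 ± 0.21 (SE, edgeR adjusted p = 0.00885), or 2.6-fold. Dsc2 and Dsc3 were called in all 6 fits that left out 1 library.

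Dsc1, the desmocollin of the upper layers, varied most within the blister group. Its level was 756.7, 200.7 and 537.9 CPM in blister libraries, against 193.1, 227.5 and 220.0 CPM in controls. Blister 2 fell among the controls while the other 2 blister libraries were above them, a 3.77-fold spread within blister against 1.18-fold within control. The log2 fold change was 1.22 ± 0.41 (SE, edgeR adjusted p = 0.0715). It passed in DESeq2 (adjusted p = 0.00689) and without blister 2 (edgeR adjusted p = 0.0123), and was 0.80 without blister 1 (edgeR adjusted p = 0.219).

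**Figure D2:**
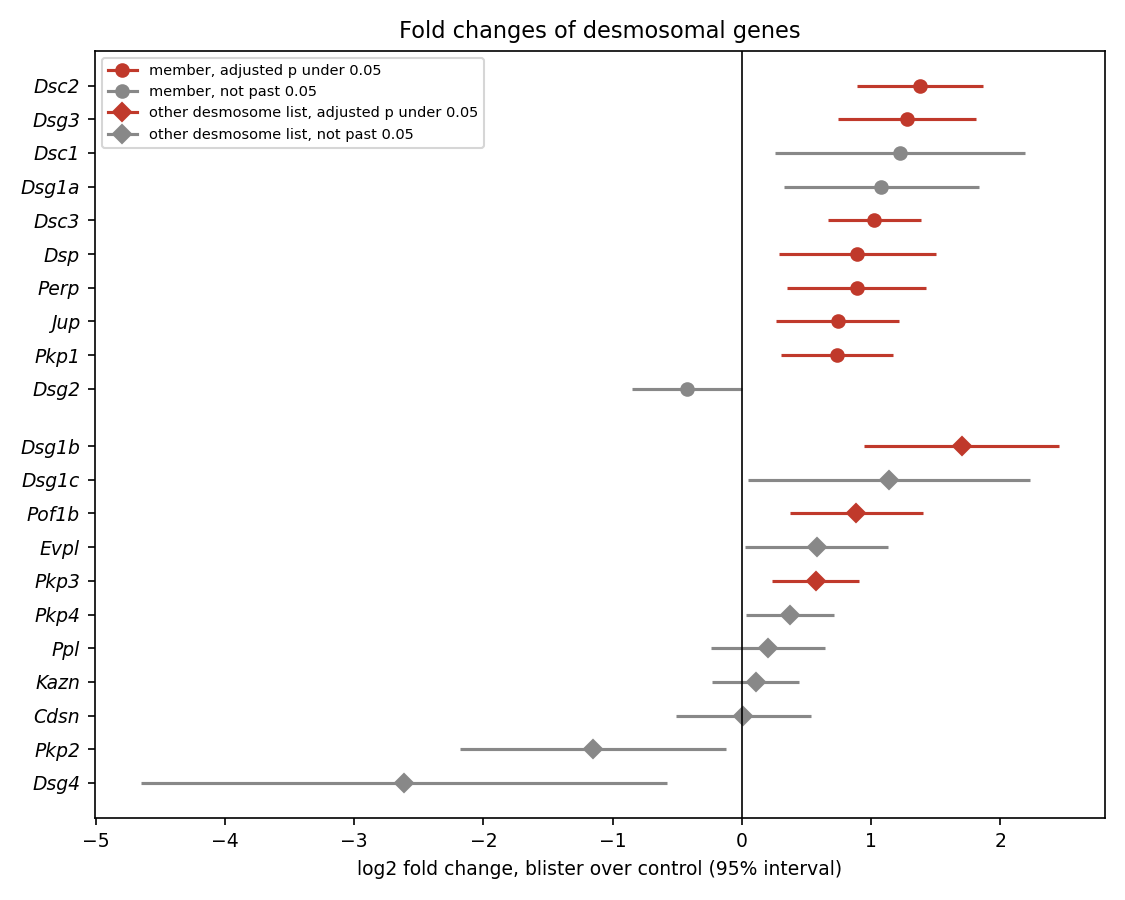
log2 fold change, blister over control, with 95% intervals from edgeR, for the 10 members (circles) and 11 other desmosome genes (diamonds), red where the adjusted p was under 0.05. Of the members 9 lie above 0, between 0.74 and 1.38, and Dsg2 lies at -0.42.

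The 3 plaque genes rose, with log2 fold changes between 0.74 and 0.89. Dsp, whose protein anchors keratin filaments at the junction, was at 7157, 3819 and 7762 CPM in blister libraries, against 3229, 3547 and 3304 CPM in controls. Blister 1 and 3 were about as high as each other, and blister 2 stood just above control 2. The log2 fold change was 0.89 ± 0.26 (SE, edgeR adjusted p = 0.0469), close to the threshold, and limma-voom did not call it (adjusted p = 0.0651).

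Pkp1, a plakophilin that clusters desmosomal proteins and is needed for cohesion of the upper layers, was at 4529.8, 2907 and 4007 CPM in blister libraries. It was at 2199, 2469.8 and 2199.9 CPM in controls. The groups did not overlap, and the log2 fold change was 0.74 ± 0.19 (SE, edgeR adjusted p = 0.0324).

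Jup encodes plakoglobin, which sits in desmosomes and in adherens junctions. Its level was 3097, 1953 and 2691 CPM in blister libraries, against 1483, 1791 and 1352 CPM in controls. Again blister 2 was nearest the controls without overlapping them. The log2 fold change was 0.74 ± 0.20 (SE, edgeR adjusted p = 0.0405).

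Perp, a membrane protein with 4 membrane-spanning segments that p63 switches on and that desmosomes of stratified epithelia need, was at 5671, 3140.5 and 3826 CPM in blister libraries. In controls it was at 2282, 2511 and 2027.5 CPM. Every blister library was above every control, and the log2 fold change was 0.89 ± 0.23 (SE, edgeR adjusted p = 0.0346).

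The calls of the plaque genes and Perp were less stable than those of Dsc2 and Dsc3. Dsp, Pkp1 and Jup each passed in 1 of 6 leave-one-out fits, the one without blister 2, with edgeR adjusted p of up to 0.142, 0.118 and 0.133 in the others, each time without control 1. Perp passed in 2, without blister 2 and without blister 3 (adjusted p up to 0.109, without control 1). Their log2 fold changes stayed between 0.59 and 1.14 in these fits. The number of members that rose was 3, 9 and 4 without blister 1, 2 and 3, and 2, 3 and 3 without control 1, 2 and 3. In the same order these fits called 510, 984 and 1789, and 286, 461 and 533 of all genes higher.

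The sequence just before the start of transcription is shown for Dsp and Jup. Of the 10 members only these 2, both plaque genes that rose, had RefSeq promoters (GRCm38.p6) in the source used. Each line gives the 250 bases before the start, 5′ to 3′ on the gene's strand, at chr13:38151044-38151293 (plus strand) for Dsp and chr11:100397791-100398040 (minus strand) for Jup. Capitals mark GC boxes and CCAAT boxes.
Dsp: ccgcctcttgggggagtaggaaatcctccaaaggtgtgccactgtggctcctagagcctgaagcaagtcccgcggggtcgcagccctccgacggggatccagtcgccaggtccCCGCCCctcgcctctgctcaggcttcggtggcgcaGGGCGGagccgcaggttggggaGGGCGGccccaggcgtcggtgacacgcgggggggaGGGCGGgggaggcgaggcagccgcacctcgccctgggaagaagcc
Jup: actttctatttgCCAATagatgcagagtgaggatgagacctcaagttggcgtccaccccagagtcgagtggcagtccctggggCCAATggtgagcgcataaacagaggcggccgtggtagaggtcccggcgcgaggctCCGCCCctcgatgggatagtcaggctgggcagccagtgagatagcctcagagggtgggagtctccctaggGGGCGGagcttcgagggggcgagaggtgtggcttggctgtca
Searched on both strands in the window of 300 bases that runs 50 bases past the start, the GC box GGGCGG occurred 4 times in the Dsp promoter and 2 times in that of Jup. The CCAAT box (CCAAT) occurred 2 times in Jup and had no match in Dsp. Of 32851 RefSeq promoters of the same length 35.7% held a GC box and 37.4% a CCAAT box. The AP-1 motif TGANTCA (in 7.81% of promoters), the TATA box TATAAA (13.6%) and the GRHL motif AACCGGTT (0.146%) had no match in these windows. No match overlapped another motif, and a match describes letters only.

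Levels were compared between genes per kilobase of exon (CPM divided by the exon length of GENCODE M21). Perp was the most abundant in both groups, at 2158 ± 671 CPM per kb in blister and 1165 ± 124 in control (SD, n = 3 each). Pkp1 followed at 759 ± 165 and 456 ± 31.1 CPM per kb. The order then ran Dsp, Jup, Dsc3, Dsg1a, Dsc1 and Dsg3 in both groups. Dsg3 was at 30.8 ± 9.42 CPM per kb in blister and 12.7 ± 2.01 in control (SD, n = 3). At the low end Dsc2 and Dsg2 changed places with this length: Dsc2 was at 7.42 ± 1.67 CPM per kb in blister and 2.87 ± 0.49 in control, and Dsg2 at 7.23 ± 1.23 and 9.69 ± 1.91. In blister libraries the ranges of Pkp1 and Dsp, Dsp and Jup, Dsg1a and Dsc1, Dsc1 and Dsg3, and Dsc2 and Dsg2 overlapped. In controls only Dsg3 and Dsg2 overlapped among neighbours in the order. Parts of this order depended on the length used. With the longest transcript as length, Jup was at 805 CPM per kb in blister and 481 in control, above Dsp at 651 and 350.3. Dsg2 then lay above Dsc2 in both groups, at 10.4 against 8.46 CPM per kb in blister and 13.9 against 3.27 in control.

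Set against each other within a library, upper-layer and lower-layer isoforms had count ratios that did not differ between the groups beyond the spread between libraries. The log2 ratio of Dsg1a to Dsg3 counts was 2.71, 1.32 and 1.36 in blister libraries, against 2.004, 2.46 and 1.77 in controls. Blister 1 lay above all controls and blister 2 and 3 below them. The blister mean minus the control mean was -0.28 (exact two-sided permutation p = 0.6, Benjamini-Hochberg adjusted over 3 ratios 0.9). For Dsc1 to Dsc3 the log2 ratio was -1.08, -2.54 and -1.51 in blister libraries, against -1.89, -1.65 and -1.64 in controls. Blister minus control, the means differed by 0.015 (exact permutation p = 1), with blister 2 the lowest and blister 1 the highest of the 6 libraries. With 3 libraries against 3 the smallest p this test can give is 0.1, so that Dsg3, Dsc2 and Dsc3 passed while Dsg1a and Dsc1 did not does not show that the isoforms responded differently.

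**Figure D3:**
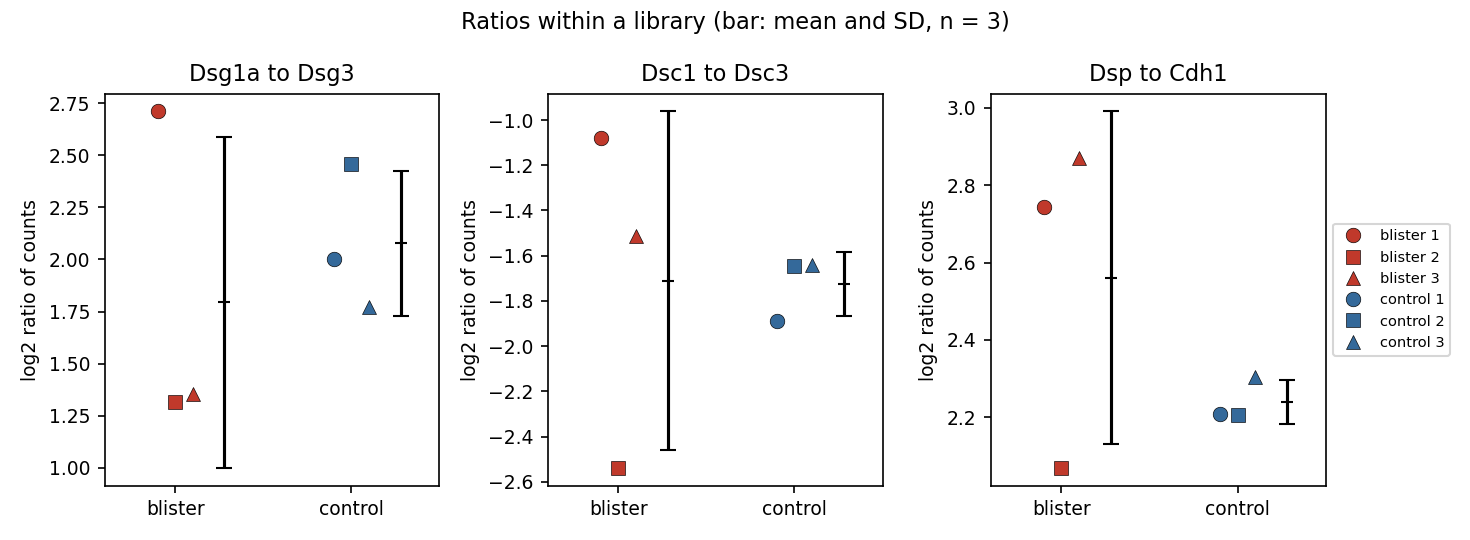
log2 ratios of counts within each library for Dsg1a to Dsg3, Dsc1 to Dsc3 and Dsp to Cdh1, with blister left of control and the mean and SD (n = 3) beside the points. The SD is 0.79, 0.75 and 0.43 in blister and 0.35, 0.14 and 0.056 in control for the 3 ratios in this order, and the groups overlap in each.

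The blister libraries also differed in the suprabasal keratins. Krt10, the keratin that replaces the basal ones as cells leave the basal layer, was at 59169, 18456 and 32288.5 CPM in blister libraries, an order shared by Dsg1a, Dsc1 and Pkp1 and equally by Dsc3, Jup and Perp. In controls it was at 17542, 31361 and 17247 CPM, where Dsg1a was also highest in control 2, though by far less. Its partner Krt1 was at 72763, 24536 and 38957 CPM in blister libraries, against 21766, 32322 and 20889 CPM in controls. Neither keratin passed (edgeR adjusted p = 0.245 for Krt10 and 0.143 for Krt1). Ivl, a late differentiation gene, averaged 168 ± 56.9 CPM in blister and 177.9 ± 30.3 CPM in control (SD, n = 3 each, edgeR adjusted p = 0.837). Of the 6 suprabasal markers 1 rose and 1 fell. Krtdap, a gene of differentiating keratinocytes, averaged 2259 ± 423 CPM in blister and 1231 ± 209.6 CPM in control (edgeR adjusted p = 0.0223). Lor, which encodes the cornified envelope protein loricrin, fell to 1720 ± 513 CPM in blister, against 3464 ± 979 CPM in control (edgeR adjusted p = 0.0443). Krtdap was called without blister 2 or blister 3 and Lor without blister 3 or control 3, and neither in the remaining leave-one-out fits (adjusted p up to 0.0726 and 0.123). Krtdap and Lor, like Krt15 below, were named after their values were seen.

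Of the 7 basal markers 3 rose and 0 fell (3 and 1 at an unadjusted p under 0.05, likewise in DESeq2, 3 and 0 in limma-voom), among them the keratin partners Krt14 and Krt5. Krt14 was at 32509, 31954 and 21249 CPM in blister libraries, against 7896, 7902 and 7404 CPM in controls (edgeR adjusted p = 0.00467). Krt5 was at 19174, 22968 and 16645 CPM in blister libraries, against 11272, 11068 and 11870.2 CPM in controls (edgeR adjusted p = 0.0184). Blister 2, lowest of the blister libraries for Dsc3 and Dsp, was not the lowest for these 2 keratins. Krt15, another basal keratin, did not pass and had a lower mean in the blister libraries. Its level was 1931, 1194 and 1306 CPM in blister libraries, against 2524, 2467 and 1928 CPM in controls, with blister 2 the lowest of the 6 (edgeR adjusted p = 0.0706). Leaving out any single library kept the call of Krt14. Krt5 lost it without any 1 of the controls (adjusted p up to 0.0869), and Krt15 was called as lower without blister 1.

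**Figure D4:**
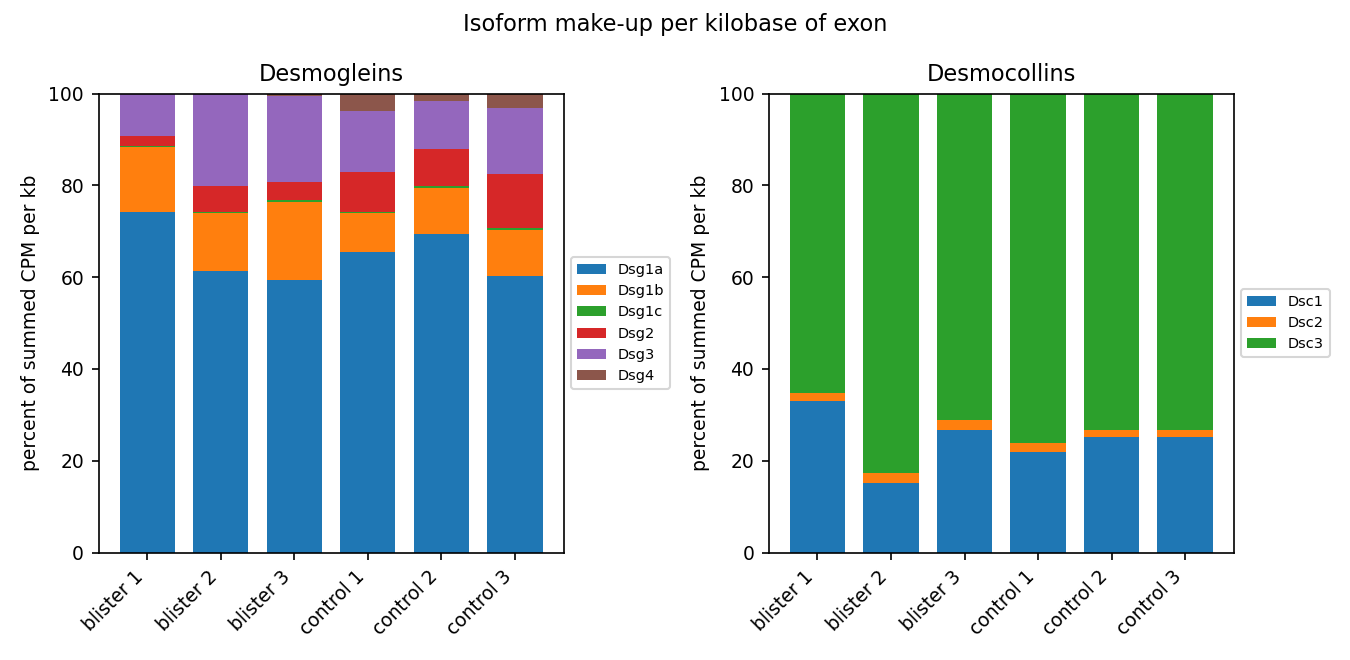
Share of each isoform in the summed CPM per kb of the desmogleins (left) and desmocollins (right), 1 bar per library with blister left of control. Dsg2 takes 2.17% to 5.72% in blister and 8.26% to 11.9% in control, and Dsc3 takes 65.3% to 82.6% and 73.4% to 76.0%.

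As a share of desmoglein RNA per kilobase, Dsg1a held 65.0% ± 8.07 in blister and 65.1% ± 4.64 in control (SD, n = 3 each). Dsg3 held 16.1% ± 5.94 and 12.7% ± 2.11, and Dsg2 3.91% ± 1.77 and 9.65% ± 1.94. The shares of Dsg2 did not overlap between the groups, though its CPM values did. Those of Dsg1b (12.6% to 17.0% in blister against 8.43% to 9.96% in control) and Dsg4 (0% to 0.49% against 1.67% to 3.71%) did not overlap either. A share depends on the other isoforms as well. Among the desmocollins Dsc3 held 73.0% ± 8.81 in blister and 74.3% ± 1.53 in control, Dsc1 25.0% ± 9.03 and 24.1% ± 1.82, and Dsc2 2.03% ± 0.32 and 1.63% ± 0.29. Summed desmoglein RNA was 0.55 ± 0.069 of summed desmocollin RNA in blister and 0.57 ± 0.0057 in control. The Dsg1a values carry an uncertainty of their own, since 35% of the 50-base stretches of its transcripts occur in other genes, chiefly Dsg1b, and reads from there may have been dropped or split in the counting. For the other members this share was at most 4.66% (Dsp, whose exons overlap a predicted gene, Gm10129, on the opposite strand that the count tables do not list).

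Of 11 other desmosome genes 3 rose and 0 fell in edgeR (6 and 2 at an unadjusted p under 0.05, 3 and 0 in DESeq2, 3 and 1 in limma-voom), with a median log2 fold change of 0.37. Dsg1b, a second copy of the Dsg1 gene, was at 155.2, 62.2 and 148.7 CPM in blister libraries, against 33.3, 40.2 and 39.4 CPM in controls. Its log2 fold change was 1.70 ± 0.32 (SE, edgeR adjusted p = 0.0153), and 48.9% of its 50-base stretches occur in other genes. It was not called without blister 1 (adjusted p = 0.0532) or control 1 (adjusted p = 0.0601). Pkp3, a plakophilin of all living layers, averaged 1043 ± 126.5 CPM in blister and 702.5 ± 57.4 CPM in control (SD, n = 3 each, edgeR adjusted p = 0.0317). Pof1b, which binds actin and keratins near desmosomes, averaged 187.9 ± 56.5 and 101.8 ± 4.51 CPM (edgeR adjusted p = 0.0308). Pkp3 was called without blister 2 or blister 3 and Pof1b without blister 2, and neither was called in the other fits that left out 1 library (adjusted p up to 0.106 and 0.101).

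The remaining 8 did not pass. Dsg1c, the third copy of Dsg1, averaged 2.90 ± 1.31 CPM in blister and 1.32 ± 0.58 in control (SD, n = 3, edgeR adjusted p = 0.116). Evpl, the cornified envelope plakin envoplakin, was at 0.58 ± 0.24 on the log2 fold change scale (SE, edgeR adjusted p = 0.117), and Pkp4 at 0.37 ± 0.15 (0.106). Ppl, the partner plakin of Evpl, was at 0.20 ± 0.19 (0.467), and Kazn, which binds periplakin, at 0.11 ± 0.14 (0.612). Cdsn, the adhesive protein of cornified desmosomes, was at 0.011 ± 0.22 (SE, edgeR adjusted p = 0.975), and the signs of Cdsn, Ppl and Kazn turned with the scaling. Dsg4, a desmoglein of the hair shaft and upper layers, was at 0.73, 0 and 3.76 CPM in blister libraries, against 12.8, 5.91 and 10.7 CPM in controls. Every blister value was below every control, as for 23.1% of all genes tested, its edgeR adjusted p was 0.0691, and without blister 3 it was called, with a log2 fold change of -4.54 (adjusted p = 0.0124). Pkp2, a plakophilin of simple epithelia and lower layers, was at 1.10, 3.82 and 4.01 CPM in blister libraries, against 7.04, 5.84 and 6.85 CPM in controls (edgeR adjusted p = 0.0975). For both genes all blister libraries lay below all controls. Hair follicle markers fell in the same libraries. The most abundant of them, Krt71 of the inner root sheath, had 30.9, 16.5 and 252.9 CPM in blister libraries, against 1482, 849.3 and 710.9 CPM in controls. A link between these markers and the levels of Dsg4 and Pkp2 was not tested.

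Other junction genes were mixed in direction. Of 14 adherens junction genes 2 rose and 1 fell, with a median log2 fold change of -0.030. Over all genes tested 9.76% rose and 11.5% fell, and the counts of these short lists were not tested against those shares. Those that rose were Cdh1, the E-cadherin gene, and Pvrl1, which encodes nectin 1. Cdh1 was at 1068, 910.3 and 1062 CPM in blister libraries, against 698.95, 768.8 and 669.3 CPM in controls, and its log2 fold change was 0.51 ± 0.13 (SE, edgeR adjusted p = 0.035). Pvrl3 fell to 13.9 ± 3.62 CPM in blister, against 31.6 ± 1.42 CPM in control (SD, n = 3, edgeR adjusted p = 0.0109). Among 16 tested tight junction genes 2 fell, Cldn3 and Cldn5, with a median of -0.12. Both calls rest on low counts. Cldn3 had 15, 3 and 43 reads in blister libraries, against 136, 147 and 125 in controls. For Cldn5 the reads numbered 0, 0 and 2, against 13, 11 and 195, so its control level lay mostly in control 3. That library also had the highest summed dermal fibroblast and endothelial markers, and a link with Cldn5 was not tested. Among 10 hemidesmosome genes Itga6 rose, with a median of 0.18. Of these junction genes Pvrl3 was called in all 6 leave-one-out fits, and Cdh1, Pvrl1, Cldn3, Cldn5 and Itga6 in 1 or 2 each (adjusted p up to 0.13). The log2 ratio of Dsp to Cdh1 was 2.74, 2.07 and 2.87 in blister libraries, against 2.21, 2.21 and 2.30 in controls. Blister 1 and 3 were above the controls and blister 2 below them, a mean difference of 0.32 (exact two-sided permutation p = 0.4, adjusted 0.9).

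Scaled to 10 pan-epithelial genes in place of the whole library, so that changes are relative to other epithelial RNA, 8 members rose and Dsg2 kept its negative sign. The 9 positive log2 fold changes then lay between 0.56 (Pkp1) and 1.21 (Dsc2), the calls being those listed above and Dsg1a (edgeR adjusted p = 0.0463). That scaling moved the median of all genes by -0.16, with 535 of them called higher and 1862 lower. With the mean level of the dermal fibroblast markers as a covariate in edgeR, 0 members passed (3 higher and 0 lower at an unadjusted p under 0.05), in a fit that called 193 of all genes higher and 88 lower. The same 9 log2 fold changes then lay between 0.28 (Jup) and 1.36 (Dsg3). This covariate was 3.41, 5.52 and 4.07 log2 CPM in blister libraries and 5.86, 6.07 and 8.43 in controls. Every blister library thus lay below every control, and the fit cannot tell dermal content and group apart. Libraries also differed in sex-linked RNA, with Xist high in blister 1, blister 2 and control 1. With the Xist level (log2 CPM) as a covariate 3 members rose (Dsg3, Dsc2 and Dsc3) and the 9 fold changes lay between 0.74 and 1.37. That fit called 675 of all genes higher and 995 lower.

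**Figure D5:**
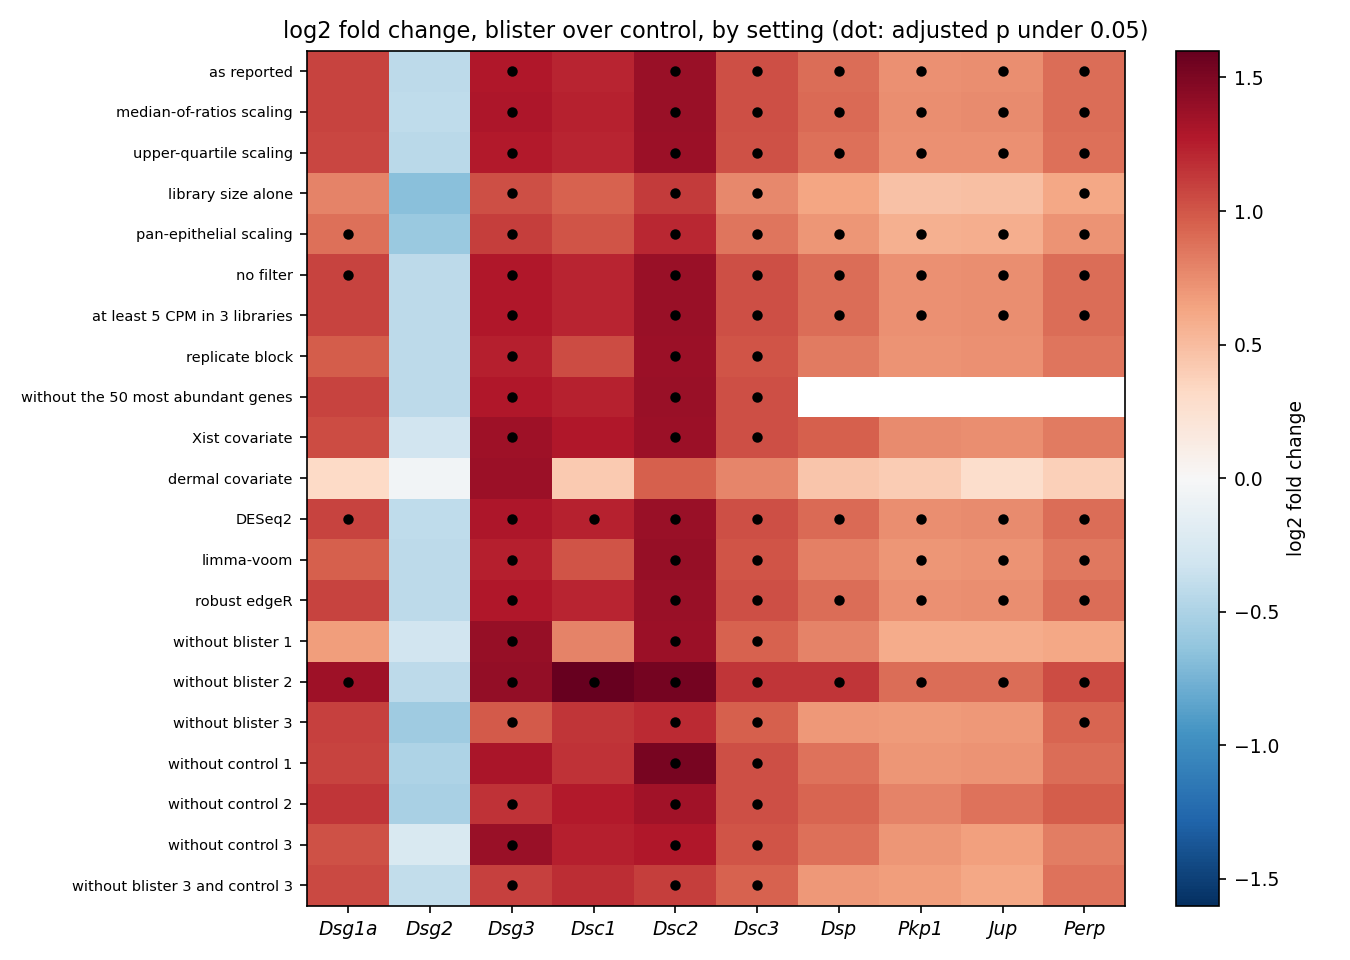
log2 fold change, blister over control, of each member (columns) as reported and in 20 alternative fits (lines of the grid), with a dot where the adjusted p was under 0.05 and white where the gene had been left out. Dsc2 and Dsc3 keep their dots in all but the dermal covariate fit, and no member changes sign in any fit.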

How the data were processed

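The authors deposited 1 table of raw read counts per gene symbol and library. The submitters' processing notes name HISAT2 2.0.0, featureCounts without a version, and the builds NCBIM37 and mm9. No setting for strand or multi-mapping reads is given in the sources used here. Per the labels' protocols, libraries were made from oligo-dT purified RNA with a TruSeq kit.

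Testing used quasi-likelihood F-tests of edgeR 4.0.16 under R 4.3.3, TMM scaling and group as the single term, after filterByExpr (minimum count 10, minimum total count 15), with Benjamini-Hochberg adjustment over 14028 genes. CPM used library totals and TMM factors (0.841 to 1.11). Ratios were tested by exact permutation. Alternatives used DESeq2 1.42.0, limma 3.58.1 and other scalings, filters and covariates. Lengths came from GENCODE M21, which held 22714 of the symbols, and promoters from RefSeq, both on a later build than the counts. The fitting code was tested on simulated data. Same-numbered libraries did not deviate together (correlations 0.212, -0.259 and 0.0102), so the numbers were not taken as pairs.

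The members and gene lists were chosen with earlier results of these data known. Genes named are all members, all tested genes of the other desmosome list, 6 fixed markers, the 2 smallest p-values of each other junction list, the most abundant marker of each other cell type and the 5 genes most like Dsp.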

Additional observations from a re-analysis of the deposited data

How the results depend on the processing

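No member changed sign in any of 20 alternative fits. Of 196 member values under these alternatives, 147 kept their side of the threshold, 43 lost the call and 6 gained it. The number of members that rose, 7 as reported, was 4 with library size alone, where 544 of all genes were called higher and 2831 lower. It was 3 with Xist as a covariate (675 of all genes higher) and 3 without blister 3 and control 3 (1229 higher). With the dermal covariate it was 0 (193 higher). Of the 6 members left when the 50 most abundant genes were removed 3 rose, with 1357 of 13896 genes called higher. With the replicate number as a block 3 members rose, in a fit that called 1351 of all genes higher. Leaving out 1 library gave 2 to 9 members that rose. It gave 0 to 4 other desmosome genes that rose and 0 to 1 that fell. For adherens junction genes 0 to 2 rose and 1 to 3 fell, while 0 to 3 tight junction genes fell and 0 to 2 hemidesmosome genes rose. Over all genes these fits called 286 (without control 1) to 1789 (without blister 3) higher, against 1369 as reported.

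The Dsc1 to Dsc3 difference, 0.015, turned to -0.30 without blister 1, -0.085 without blister 3 and -0.067 without control 1, lying between -0.30 and 0.43 with a library left out. As a replicate block, the ratio differences were the same means with a sign-flip test (-0.28 for Dsg1a to Dsg3, 0.32 for Dsp to Cdh1). Cdsn turned negative with library size alone (-0.24), with pan-epithelial scaling (-0.16) and without blister 1, blister 3, control 1 or control 3 (-0.18 to 0.21 over all 6 fits that left out 1 library). Ppl was at -0.056 with library size alone, and Kazn at -0.15 there and -0.063 with pan-epithelial scaling. Library size alone moved the median of all genes by -0.25. Where a call was lost the cause was not tested. Members had 203 to 90890 counts per library, with 3 libraries a group.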

Other observations

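The genes whose log2 CPM followed that of Dsp most closely over the 6 libraries were Chmp2b (Pearson's r = 0.997), Pcyox1 (0.99), Dhx8 (0.988), Clip1 (0.988) and Vps35 (0.988), out of 11236 genes of at least 5 CPM. These values are a description over libraries that form 2 groups and share depth and scaling. None of the 5 passed the test between groups: Chmp2b, a subunit of the membrane-cutting ESCRT-III complex, was at a log2 fold change of 0.28 (edgeR adjusted p = 0.124), and Clip1, which binds growing microtubule ends, at 0.47 (0.0955). Vps35, a retromer subunit that returns membrane proteins from endosomes, was at 0.40 (0.0703). Among the members Pkp1 stood nearest to Dsp, in place 57 (r = 0.963), then Dsc1 in place 86 (0.954) and Jup in place 139 (0.94). Dsg3 was in place 678 (0.84), and Dsg2 ran the other way (-0.53).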
